A study of Mus musculus with 12 samples.

Results

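Cluster 11 gathered inhibitory neurons that the study labelled as striatal, found among nuclei of the embryonic cortex. The label rests on expression, and other clusters shared many striatal genes. Its members were all nuclei that the authors' clustering placed in this cluster, 2209 of 50550 nuclei (4.37%) over 11 embryos, with 78 to 348 nuclei per embryo. The study profiled nuclei of the cortex of C57BL/6J mouse embryos at embryonic day 14 by snRNAseq in droplets, in which each captured RNA carries a molecular barcode and is counted once as a UMI, to compare prenatal exposure to alcohol (EtOH) with saline. Pregnant dams received daily intraperitoneal injections of either agent up to the day before collection. Embryos are named by dam and number: the Saline group held S1-1, S1-2, S2-1, S2-2 with S2-4 (n = 5), and the EtOH group held E1-1, E1-2 and 4 littermates, E2-1 to E2-4 (n = 6). Dams S1 and E1 formed batch 1 and dams S2 and E2 batch 2. With 2 dams per treatment, p-values measure the spread between embryos, littermates included, and the dam was taken into account only in the alternatives that name it. In every comparison counts were summed per embryo, and levels are given as CPM, a gene's UMIs scaled to 1 common total of Cluster 11 UMIs in every embryo.

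The striatum is the input station of the basal ganglia, and nearly all of its neurons are GABAergic projection neurons born in the lateral ganglionic eminence. As they mature they divide into a direct pathway, whose neurons carry the dopamine receptor Drd1 and the peptides substance P (from Tac1) and dynorphin (from Pdyn), and an indirect pathway, whose neurons carry Drd2, the adenosine receptor Adora2a and the opioid peptide gene Penk. Ebf1 and Isl1 are transcription factors of direct pathway neurons, while Six3 and Sp9 act in indirect pathway neurons. Retinoic acid, made from vitamin A by aldehyde dehydrogenases, acts in this tissue through nuclear receptors, among them Rarb and its partner Rxrg.

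Levels of the markers behind the label were described over the clusters. Ebf1 (chr11:44617317-45008091), Rarb (chr14:16430839-16819156) and Gad2 (chr2:22622205-22693874), placed here on GRCm38 by GENCODE M21, were at 12463 ± 1265 CPM, 1910.0 ± 179 CPM and 1172 ± 188 CPM (SD, n = 11 embryos). Ebf1 and Rarb were higher in Cluster 11 than in any of the other 24 clusters, which reached at most 969 CPM for Ebf1 and 519 CPM for Rarb. Gad2, an enzyme of GABA synthesis that all inhibitory neurons use, had rank 3 among the 25 clusters. Since clusters were drawn from the expression of these same nuclei, such differences between clusters describe Cluster 11 and were not tested. The promoter of Rarb is shown because this receptor gene is itself a textbook target of retinoic acid. Of its RefSeq promoter, the 250 bases before the start site lie at chr14:16575477-16575726 on the minus strand of GRCm38.p6. Capitals mark 2 hexamers, GGTTCA and AGTTCA, that are repeated in the same direction with 5 bases between them, the layout of a retinoic acid response element.
Rarb promoter: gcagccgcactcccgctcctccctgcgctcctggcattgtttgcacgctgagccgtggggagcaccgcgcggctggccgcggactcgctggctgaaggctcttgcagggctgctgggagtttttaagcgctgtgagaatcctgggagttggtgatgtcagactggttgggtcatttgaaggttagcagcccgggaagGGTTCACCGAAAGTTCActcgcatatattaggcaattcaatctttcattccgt
The repeat lies 53 to 37 bases before the start site. Searched on both strands for any 2 hexamers, each AGGTCA or GGGTCA or AGTTCA or GGTTCA, at this spacing, 29 of 32851 RefSeq promoter windows of this length (0.0883%) held one. Among the promoters of 21 striatal identity factors found in the table, only the one of Rarb held it. Among those of 13 leading genes of Cluster 11 it was also in that of Gm14133, and among those of 15 retinoic acid genes in that of Cyp26a1, an enzyme that breaks down retinoic acid. The match describes the letters and does not show that a receptor bound there.

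One library stood apart from its group. On the first principal component of Cluster 11 expression, which held 30.7% of the variance over 7152 genes, the Saline embryos S1-1, S1-2, S2-1 and S2-2 lay between -20.5 and -12.5. Saline embryo S2-4 lay at 6.70, among the EtOH embryos at 5.92 or higher. The summed level of 5527 genes annotated as any type other than protein-coding, called non-coding here, followed the same order in Cluster 11. It was at 39166 to 44382 CPM in the first 4 Saline embryos, 51616 CPM in S2-4 and 49343 to 52470 CPM in the EtOH embryos. In the nuclei outside Cluster 11 the corresponding levels were 40140 to 44893, 53190 and 50598 to 55534 CPM. Ribosomal protein genes, 77 in all, summed to 755 to 1272 CPM in the first 4 Saline embryos, 1281 CPM in S2-4 and 1257 to 1486 CPM in the EtOH embryos. Whether the label, library preparation or read counting of the library labelled S2-4 differed from the other Saline libraries could not be told from these values, and it counts as Saline in each comparison unless it is left out. The part of these measures in the treatment comparison was not tested, and counts of changed genes, and changed genes whose values are shown for each Saline embryo, are given with and without S2-4. Depth also differed, since Cluster 11 UMIs per embryo ran from 740446 to 4348761, with the fewest in E1-1. Of the 50550 nuclei, 638 carried a barcode also found in another library, 32 of them in Cluster 11.

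**Figure D1:**
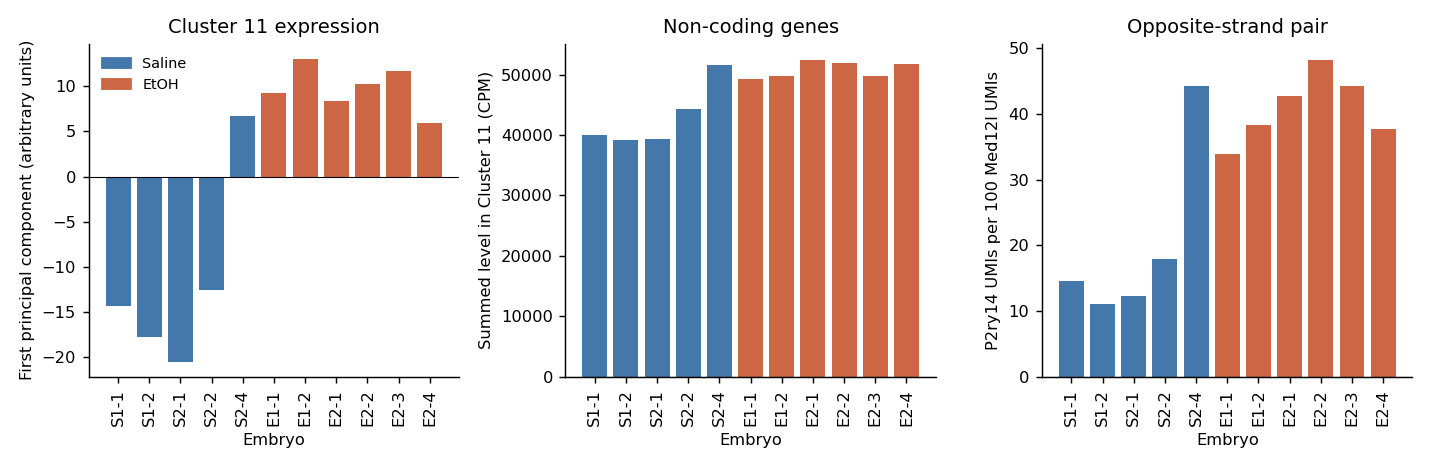
The 11 embryos (x axis, Saline in blue and EtOH in orange) by the first principal component of Cluster 11 expression (left), the summed CPM of non-coding genes in Cluster 11 (middle), and the UMIs of P2ry14 per 100 UMIs of Med12l, the gene on the opposite strand (right). In all 3 panels the bar of Saline embryo S2-4 lies with the EtOH bars, at 44.2 P2ry14 UMIs per 100 in the right panel against 11.1 to 17.8 in the other Saline embryos.

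Most of the lead of Cluster 11 in transcription factors of striatal identity came from Ebf1. The 28 factors of a list that were in the files summed to 30961 ± 2340 CPM (SD, n = 11), against 17546 CPM in Cluster 13, the next highest. Without Ebf1 the sums were 18499 CPM here, against 17468 and 15011 CPM in Clusters 13 and 18. Foxp1 and Foxp2, forkhead factors of striatal projection neurons, and Bcl11b, a zinc finger factor that these neurons need to differentiate, were each highest in Cluster 11. Foxp1 was at 1756 ± 240.1 CPM against at most 799 CPM in another cluster, Foxp2 at 2502 ± 398 CPM against 1921 CPM, and Bcl11b at 1907 ± 125 CPM against 1237 CPM. A pair of other abundant factors were shared with neighbouring clusters. Meis2, a homeobox factor of the ganglionic eminence, reached 5528 ± 492 CPM here against 7081 CPM in Cluster 13, and Pbx3, a partner of Meis2, was at 1686 ± 286 CPM against 4444 CPM in Cluster 18.

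**Figure D2:**
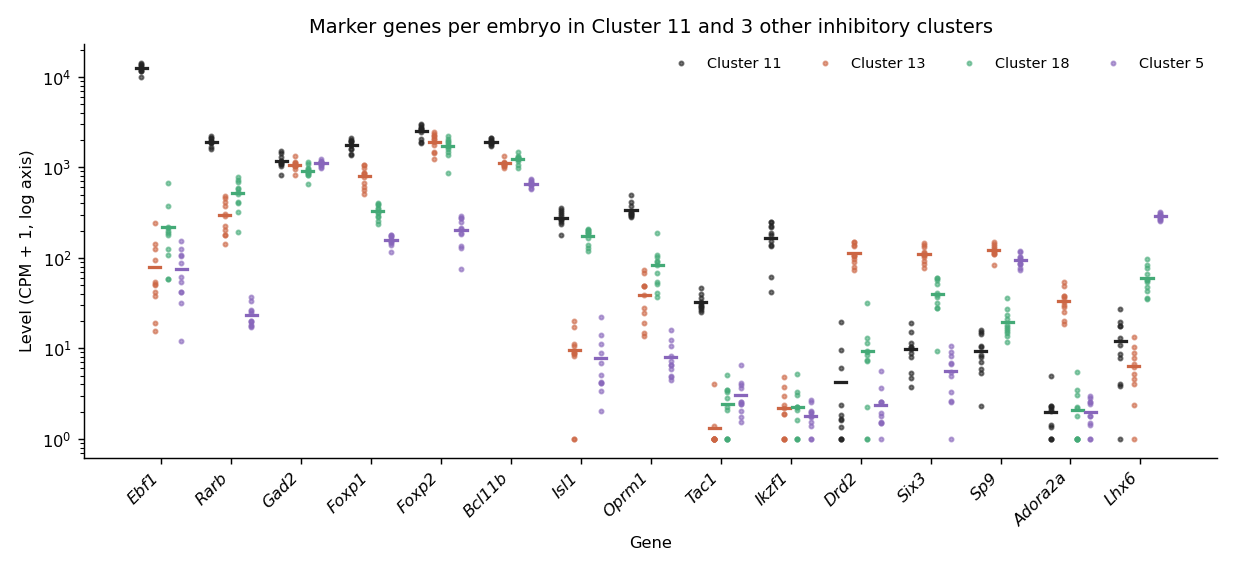
Levels of 15 genes (CPM plus 1, log axis) in each of the 11 embryos (points, with the mean as a line) in Cluster 11, Clusters 13 and 18, which were most like it, and Cluster 5 of migrating interneurons. Ebf1, Rarb, Foxp1, Isl1, Oprm1, Tac1 and Ikzf1 are highest in Cluster 11, while Drd2, Six3, Sp9 and Adora2a are highest in Cluster 13 and Lhx6 in Cluster 5.

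Several direct pathway genes were highest in Cluster 11, whereas indirect pathway genes that were detected were higher in Cluster 13. The 10 direct pathway genes summed to 13767 ± 1304 CPM, of which Ebf1 made up most. Without Ebf1 they summed to 1305 CPM here, against 186 and 764 CPM in Clusters 13 and 18. Isl1 was at 277 ± 49.5 CPM and next highest in Cluster 18 at 174 CPM. Oprm1, the mu opioid receptor gene, was at 338 ± 65.5 CPM against at most 81.9 CPM elsewhere. Tac1 was at 31.1 ± 6.41 CPM, above the 4.87 CPM of the next cluster. The mature markers were barely detected, with Drd1 at 4.14 ± 2.18 CPM and Pdyn at 0.971 ± 0.684 CPM. Of the indirect pathway list, 9 of 10 genes were in the files and summed to 212 ± 52.2 CPM, rank 15 of 25 clusters, against 2901 CPM in Cluster 13. Drd2 reached 3.28 CPM here against 111 CPM in Cluster 13, and Adora2a reached 0.978 against 32.4 CPM. Penk reached 0.525 CPM here against 4.19 CPM there, and Gpr6 had 0 UMIs in Cluster 11. Most of the indirect pathway sum came from Grik3, a kainate receptor subunit, at 106 ± 29.4 CPM here against 1072 CPM in Cluster 13, and Ptprm, a receptor phosphatase, at 83.7 ± 37.0 CPM against 1451 CPM. The factors Six3 and Sp9 were at 8.71 and 8.38 CPM here and at 109.8 and 120.3 CPM there.

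Shares of single nuclei with a UMI were compared once each was thinned to 2000 UMIs, which left out 14 shallower nuclei of Cluster 11 (4 Saline and 10 EtOH). Of 2195 thinned nuclei, 2194 held an Ebf1 UMI, compared with 12.2%, 19.1% and 13.6% in Clusters 13, 18 and 5, where free RNA in the droplets can supply it. Ebf1 in Cluster 5 was at 86.3 to 153 CPM in Saline and 10.96 to 59.97 CPM in EtOH embryos, without overlap. The ranges overlapped in Cluster 13 (50.03 to 239 and 14.4 to 53.7 CPM) and in Cluster 18 (187 to 371 and 56.9 to 665 CPM). Whether free RNA was the source, and whether its amount differed between treatments, was not tested. Median depths before thinning were 8528 UMIs in Cluster 11 and 6789.5 in Cluster 13. An Isl1 UMI was found in 40.2% of Cluster 11 nuclei (24.4% in the embryo with the fewest) against 1.16% in Cluster 13 and 25.8% in Cluster 18. An Oprm1 UMI was found in 35.0%, against 5.32% and 10.98% in Clusters 13 and 18, and a Tac1 UMI in 4.78% against 0.077% and 0.415%. Indirect pathway genes ran the other way, with Drd2 at 0.319% in Cluster 11 and 15.9% in Cluster 13, Grik3 at 14.3% and 81.0%, and Ptprm at 8.29% and 53.7%. Drd1 was found in 0.456% of Cluster 11 nuclei and 0.693% of Cluster 13 nuclei, so at this depth it did not mark Cluster 11. Pdyn was found in 0 of 2195 nuclei, which allows a share of nuclei with a UMI at this depth of up to 0.137%, and before thinning 19 of 2209 nuclei (0.860%) held one. Before thinning, an Ebf1 UMI was present in every one of the 2209 nuclei.

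The genes that led Cluster 11 over all other clusters included Ikzf1, the Ikaros zinc finger factor, at 166 ± 70.2 CPM and 17.7 times the next cluster, and Ebf1 at 12.9 times. Oprm1 (4.12 times) and Rarb (3.68 times) were among the 15 with the largest ratio and at least 50 CPM, as were Col25a1, a transmembrane collagen (3.62 times), and Ephb1, an Eph receptor of axon guidance, at 2196 ± 169 CPM and 2.36 times. Frmd6, a FERM domain protein, was at 231 ± 43.8 CPM (4.78 times), and Map3k1, a kinase upstream of JNK, at 182 ± 31.9 CPM (2.47 times). Several leading genes share their place in the genome with another one. Gm12158, an antisense transcript (chr11:44659522-44662676), lies within Ebf1 on the opposite strand, and the purinergic receptor genes P2ry12 and P2ry14 lie opposite to Med12l, a Mediator subunit gene at 1030 ± 182 CPM. The methods state that Cell Ranger was run at its defaults and name no strand setting, and whether reads of such pairs were told apart was not tested. P2ry12 is a defining microglial gene, at 76.3 CPM in Cluster 11, and like Med12l it was next highest in Cluster 2, while Cx3cr1, another microglial gene, was at 13.5 CPM, rank 9 of 25 clusters.

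These opposite-strand pairs also followed the split between libraries. Per 100 UMIs of Ebf1, Gm12158 had 0.533 to 0.726 UMIs in S1-1, S1-2, S2-1 and S2-2, 1.26 in S2-4 and 1.13 to 1.27 in the EtOH embryos. Per 100 UMIs of Med12l, P2ry14 had 11.1 to 17.8 UMIs in the first 4 Saline embryos, 44.2 in S2-4 and 33.8 to 48.2 in the EtOH embryos. For P2ry12 the same ratio was 3.23 to 5.35, 9.31 and 6.80 to 12.8. In all 3 pairs, S2-4 lay within the range of the EtOH embryos and apart from the other Saline embryos.

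Ikzf1 itself varied widely and within treatments. Its level was 248, 179, 41.0, 59.7 and 133 CPM in S1-1, S1-2, S2-1, S2-2 and S2-4, and 139, 204 and 248 CPM as the lowest, median and highest of the EtOH embryos. The Saline embryos of dam S1 lay inside the EtOH range and those of dam S2 below it, and the difference of 0.49 ± 0.44 on the log2 scale did not pass the test (edgeR, adjusted p = 0.608). In batch 1 alone its direction was the opposite, at -0.68, and passed the threshold there (adjusted p = 0.0447).

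The genes of transmitter use covered both synthesis and transport of GABA. Gad2 was abundant, while Gad1, which encodes the other GABA-making enzyme, was at 181 ± 21.3 CPM and rank 8 of 25 clusters. Slc32a1, the vesicular GABA transporter, was at 21.1 ± 6.26 CPM. The chloride importer Slc12a2 was at 91.5 ± 14.0 CPM and the exporter Slc12a5 at 20.6 ± 4.37 CPM. Among signalling genes of striatal neurons, Pde10a, a phosphodiesterase, was highest in Cluster 11 at 721 ± 74.7 CPM, as were Pde7b, another phosphodiesterase, at 262 ± 71.0 CPM and Gnal, the G protein subunit that couples Drd1 to adenylyl cyclase, at 168 ± 40.1 CPM. Sema6d, a guidance semaphorin, was highest as well at 2854 ± 497 CPM. The guidance receptors Robo2 and Robo1 were second highest of 25 clusters, at 6958 ± 545 CPM and 5057 ± 377 CPM.

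Markers of other cell types were compared with their levels elsewhere. Neurod2, a factor of projection neurons, was at 22.1 CPM, Eomes of intermediate progenitors at 12.6 CPM, and Lhx6 of cortical interneurons at 10.9 CPM, compared with 285 CPM in Cluster 5. The cortical interneuron markers summed to 1453 ± 491 CPM in Cluster 11 and 36015 CPM in Cluster 5. That sum ranged from 735 to 2191 CPM in Saline and from 698 to 1739 CPM in EtOH embryos, so the groups overlapped. A list of thalamic and diencephalic markers summed to 2634 ± 384 CPM, the highest of 25 clusters, of which Foxp2, also a striatal factor, made up 2502 CPM, whereas the thalamic factor Gbx2 was at 0.0386 CPM. The 14 non-neural markers summed to 108 CPM, also the highest of 25 clusters and next to 103 CPM in Cluster 21. Of this sum P2ry12 made up 76.3 CPM and Cx3cr1 13.5 CPM, and the other 12 markers were at 0.0298 CPM (Sox10) to 3.69 CPM (Pecam1). Over 5905 genes, the mean profile of Cluster 11 was most like those of Cluster 18 (Pearson r = 0.947 across genes) and Cluster 13 (r = 0.941), a description in which the clusters share libraries.

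The share of Cluster 11 among all nuclei overlapped between treatments. It was 4.56, 4.50, 4.39, 3.47 and 4.38% in S1-1, S1-2, S2-1, S2-2 and S2-4 and had a lowest, median and highest value of 3.32, 4.33 and 6.13% in the EtOH embryos. The Saline values all lay inside the EtOH range. Means were 4.26 ± 0.447% (SD, n = 5) and 4.42 ± 1.01% (n = 6), a difference of 0.156 percentage points (two-sided exact permutation test over 462 splits, p = 0.758, adjusted p = 0.823 over 25 clusters, p = 0.743 within batches). The means were 4.53 and 4.08% in batch 1 and 4.08 and 4.59% in batch 2. Of the nuclei of the 7 interneuron clusters and Cluster 11 together, Cluster 11 made up 13.8 ± 2.15% and 15.3 ± 3.16% (p = 0.387 by the exact permutation test). The study removed 1 Saline sample because its cells were spread differently over the clusters, so its Saline group was chosen partly on such shares. For a thalamic cluster the paper proposes uneven collection of tissue next to the cortex. Whether this bears on the share of Cluster 11 was not tested. Fewer UMIs were counted per Cluster 11 nucleus after EtOH. The median was 9945, 10533, 9658, 9221 and 7581 UMIs in the 5 Saline embryos, in the order above, and 4596, 7750 and 8600.0 UMIs as the lowest, median and highest of the EtOH embryos. S2-4 lay inside the EtOH range and the other Saline embryos above it, and the group means (SD) of 9387 ± 1117 and 7393 ± 1424 UMIs differed (exact permutation test, p = 0.0238, and p = 0.0381 with labels exchanged within batches). In batch 1 the means were 10239 and 6376 UMIs, and in batch 2 they were 8820 and 7902 UMIs. Leaving out 1 embryo moved p to at most 0.0667, reached without S1-2, with 0.0619 without S1-1 and 0.0524 without S2-1, and without S2-4 it was 0.00952. Over all nuclei the mean of the median UMIs was 8158 ± 1062 in Saline and 6113 ± 1038 in EtOH embryos (exact permutation test, p = 0.0108). In snRNAseq, fewer UMIs per nucleus and less RNA per nucleus cannot be told apart.

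**Figure D3:**
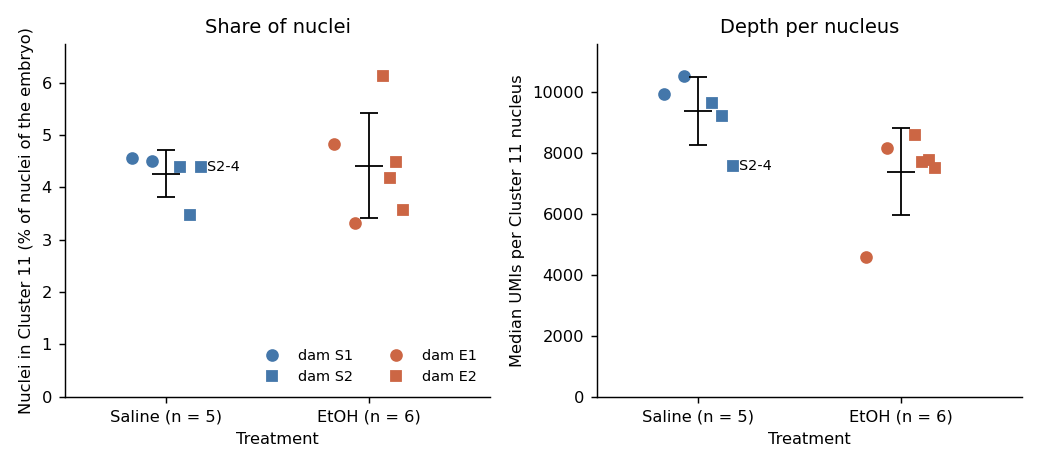
Share of nuclei in Cluster 11 (left, percent of all nuclei of the embryo) and median UMIs per Cluster 11 nucleus (right), with 1 point per embryo, circles for batch 1 and squares for batch 2, and bars for the mean and SD. The shares overlap between treatments, and S2-4 has the lowest median UMI count of the Saline embryos.

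After EtOH, 85 of 10185 genes tested (0.835%) changed in Cluster 11 (edgeR's quasi-likelihood test, called where the adjusted p was under 0.05 and the fold below 0.8 or above its inverse). Of these 46 rose (0.452%) and 39 fell (0.383%), and 1927 genes had an unadjusted p under 0.05. Of the genes that fell, 38 of 39 (97.4%) were protein-coding, near the 92.8% of all genes tested with a position in the annotation. The genes that rose were at lower levels and held more non-coding genes. Without S2-4, 736 genes rose (7.19%) and 270 fell (2.64%), all 85 above among them (9.83% called in all). This embryo was singled out because it lay with the EtOH embryos in these same counts. Leaving it out therefore widens the gap between the groups. Here and below, calls and p-values without S2-4 are descriptions and no separate support for a change. Without S1-1, and likewise without S1-2, 0 genes rose and 1 fell, the guidance receptor gene Epha3. Of the 85 genes, 4 were called in 9 or more of the 11 fits that left out 1 embryo. In batch 1 alone 281 genes rose and 128 fell, and in batch 2 alone, which holds S2-4, 8 rose and 6 fell, of which 0 and 3 were among the genes called with all embryos. DESeq2 called 174 higher and 66 lower with all 11 embryos. Log2 fold changes are given ± SE.

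**Figure D4:**
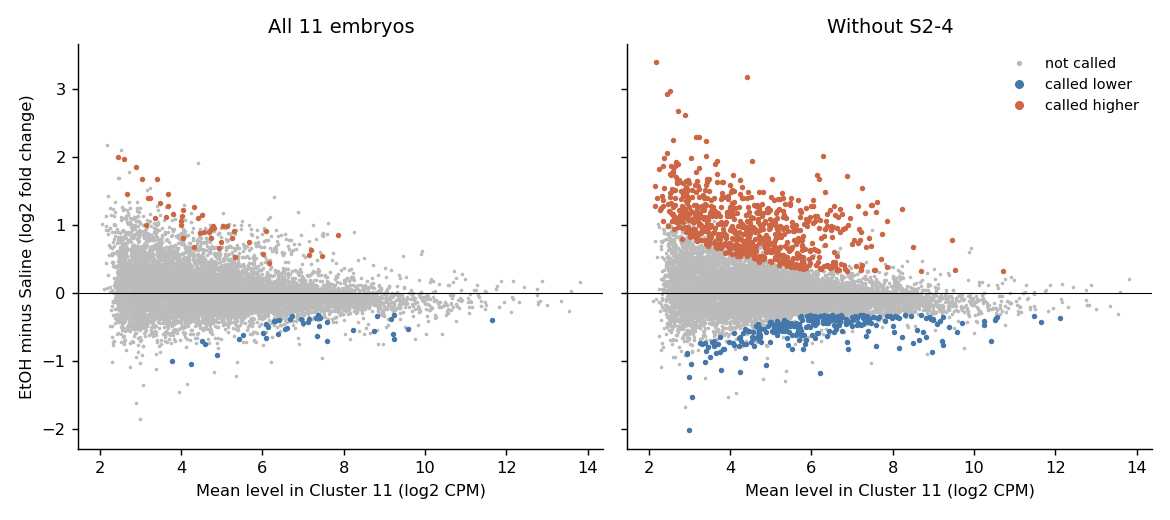
Log2 fold change after EtOH (y axis) against the mean level in Cluster 11 (x axis, log2 CPM) of the 10185 genes tested, with all 11 embryos (left) and without S2-4 (right). Called genes are in orange (higher) and blue (lower), 46 and 39 on the left and 724 and 269 on the right, where only genes also tested on the left are drawn.

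Epha3 fell in every fit that left out 1 embryo, the only gene to do so, while Npas3, Khdrbs2 and Rapgef2 were called in 9 of 11. Over all 25 other settings Epha3 lost its call in 2, in batch 1 alone and with counts summed per dam, with a log2 fold change down to -0.38 and an adjusted p up to 0.0876. This Eph receptor, through which growing axons are repelled by ephrins, was at 855, 843, 1001, 929 and 860.3 CPM in the Saline embryos in the order above, against 578, 617 and 773 CPM as the lowest, median and highest of the EtOH embryos. The groups did not overlap, which held for 72 of 10185 genes with EtOH lower (0.707%) and 170 in either direction (1.67%, and 8.79% without S2-4). Epha3 fell by 0.54 ± 0.08 on the log2 scale (edgeR, adjusted p = 0.012), and without S2-4 the log2 fold change was -0.57 (adjusted p = 1.32e-05). Its annotated span is chr16:63543534-63864175 on the minus strand. Ephb2, an Eph receptor that binds ephrin-B ligands, was at 164, 195, 222, 189.6 and 171 CPM in the Saline and 143, 146 and 176 CPM in the EtOH embryos. Its groups overlapped, and it fell by 0.37 ± 0.09 (adjusted p = 0.045), with a log2 fold change of -0.42 without S2-4, but was called in 2 of the 11 fits without 1 embryo. Of 29 guidance genes tested, these 2 fell and 0 rose, where 0.383% of all genes tested fell. The median log2 fold change of the 29 was -0.22, against -0.01 over all genes tested. Of the 29, 24 lay below 0, as did 5219 of all 10185 genes tested. Without S2-4, 6 of 29 fell, adding Dcc, the netrin receptor, Slit2, a Robo ligand, Efna5, an ephrin, and Sema6d, where 2.64% of all genes fell. A lean below 0 was not particular to guidance genes. With all 11 embryos, 22 of 31 genes of synaptic adhesion and release and 19 of 27 voltage-gated channel genes lay below 0. Of 12 striatal signalling genes, 2 did.

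Npas3 and Sox11, both transcription factor genes, fell as well. Npas3, a bHLH-PAS factor of neural development, was at 482, 546, 522, 433 and 519 CPM in the Saline embryos in the order above, against 275, 349 and 420.1 CPM as the lowest, median and highest of the EtOH embryos. The groups did not overlap. It fell by 0.57 ± 0.09 on the log2 scale (edgeR, adjusted p = 0.0161), and without S2-4 the log2 fold change was -0.58 (adjusted p = 0.000358). Sox11, a factor that drives the early differentiation of neurons, was at 365, 336, 408, 385 and 257 CPM in the Saline embryos in the order above, against 231, 250.2 and 265 CPM as the lowest, median and highest of the EtOH embryos. S2-4 lay within the EtOH range and the other Saline embryos above it. It fell by 0.54 ± 0.10 on the log2 scale (edgeR, adjusted p = 0.0219), and without S2-4 the log2 fold change was -0.65 (adjusted p = 5.09e-07). Zfp462, a zinc finger gene, was at 601, 653, 649, 668 and 621 CPM in the Saline and 452, 517 and 559.7 CPM in the EtOH embryos, with no overlap, and fell by 0.38 ± 0.07 (adjusted p = 0.0161), or by 0.41 without S2-4. Zfhx2, a zinc finger homeobox gene, and Zfp536, a zinc finger repressor of neuronal differentiation, also fell without overlap, by 0.45 and 0.64. Some of these genes were more abundant in other nuclei. Group means of Npas3 (Saline, EtOH) were 500.4 and 350.5 CPM here, against 2609 and 2804 CPM among nuclei of Cluster 5. In Saline embryos, Cluster 5 also exceeded Cluster 11 for Epha3 (1645 against 898 CPM) and Zfp536 (1071 against 194 CPM). For Zfp462 the levels were close, 671 against 638 CPM. Whether RNA carried over from such nuclei had a part in these falls was not tested. Sox11 was called in 4 of the 11 fits without 1 embryo. It was the 1 of 15 neuronal maturation genes tested that fell, where 0.383% of all genes tested fell. Gap43, a growth cone protein gene of the same list, was higher in EtOH embryos without overlap, at 230.4 to 258 CPM in Saline and 265 to 292 CPM in EtOH embryos, but was not called (0.08 ± 0.07, adjusted p = 0.583), and Dcx and Map2, microtubule proteins of young neurons, were at 383 and 1920.4 CPM in Saline and 372 and 1847 CPM in EtOH embryos and were not called.

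Khdrbs2 fell, as did genes of several other roles. Khdrbs2, which encodes the splicing regulator SLM1, was at 663, 768, 804, 834 and 572 CPM in the Saline embryos in the order above, against 395, 468 and 556 CPM as the lowest, median and highest of the EtOH embryos. S2-4 was the lowest Saline embryo, and the groups did not overlap. It fell by 0.68 ± 0.11 on the log2 scale (edgeR, adjusted p = 0.0161), and without S2-4 the log2 fold change was -0.77 (adjusted p = 1.47e-06). Prpf38b, a pre-mRNA processing factor, fell by 0.67 and Ddx3x, an RNA helicase, by 0.53, both without overlap, and without S2-4 their log2 fold changes were -0.77 and -0.58. Kcnq1ot1, an imprinted antisense RNA within Kcnq1, was the 1 non-coding gene among the 39, at 628, 729, 869, 758 and 518 CPM in the Saline and 438, 482 and 508 CPM in the EtOH embryos, and fell by 0.61 ± 0.11 (adjusted p = 0.0189), or by 0.72 without S2-4. Rapgef2, an exchange factor for Rap GTPases in neuronal migration, fell by 0.43, Ccdc50 by 0.44, and Nus1, a subunit of the enzyme that makes dolichol, by 0.75, all 3 without overlap. Scn1a, a voltage-gated sodium channel subunit, was at 118, 112, 126, 115 and 102 CPM in the Saline and 83.7, 87.9 and 110.4 CPM in the EtOH embryos, which overlapped, and fell by 0.39 ± 0.09 (adjusted p = 0.0477), or by 0.45 without S2-4, but was called in 2 of the 11 fits without 1 embryo. It was the 1 of 27 voltage-gated channel genes that fell (0.383% of all genes tested fell), and without S2-4 there were 5, Scn2a and Scn3a among them (2.64% of all genes).

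**Figure D5:**
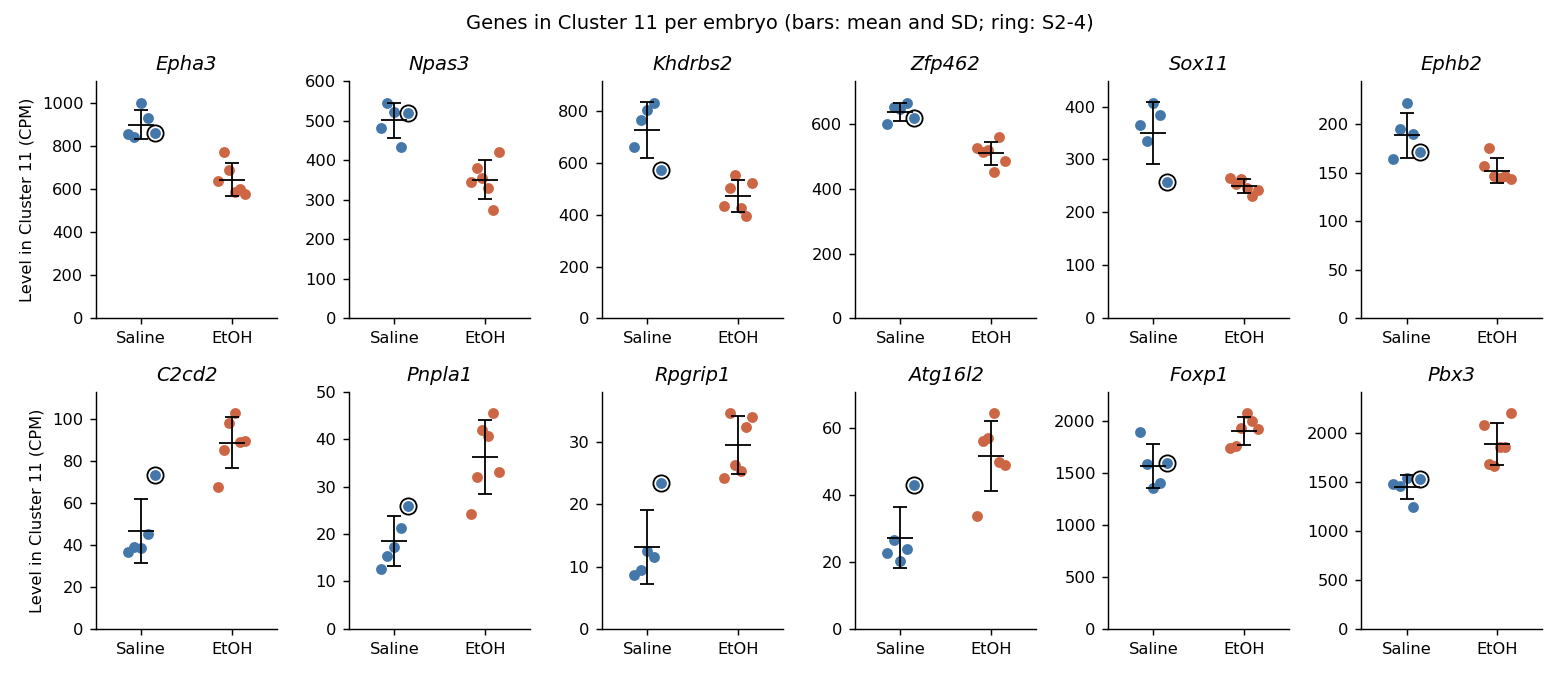
Levels in Cluster 11 (CPM) of 12 genes in each Saline (blue) and EtOH (orange) embryo, with the mean and SD as bars and S2-4 ringed. The 6 genes of the upper row fell, and S2-4 lies near the EtOH embryos for Khdrbs2 and Sox11 but among the Saline embryos for Epha3, Npas3 and Zfp462, while in the lower row C2cd2, Pnpla1, Rpgrip1 and Atg16l2 rose and Foxp1 and Pbx3 were not called.

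Of the 46 genes that rose, 45 had a position in the annotation, and 32 of these (71.1%) overlapped a gene on the opposite strand, against 51.4% of all genes tested with a position and 53.8% of the 39 that fell. Protein-coding genes were 24 of the 45 (53.3%), against 92.8% of all genes tested. Their annotated span had a median of 18.6 kb, compared with 112 kb for the genes that fell and 34.5 kb for all genes tested. C2cd2, which encodes a C2 domain protein and has no opposite-strand neighbour, was at 36.8, 39.0, 38.3, 45.1 and 73.2 CPM in the Saline embryos in the order above, against 67.5, 89.1 and 103 CPM as the lowest, median and highest of the EtOH embryos. S2-4 was far above the other Saline embryos and inside the EtOH range. It rose by 0.92 ± 0.16 on the log2 scale (edgeR, adjusted p = 0.0161), and without S2-4 the log2 fold change was 1.13 (adjusted p = 1.59e-07). Pnpla1, a phospholipase-like enzyme of skin lipid synthesis that lies opposite to Pnpla1os, was at 12.6, 15.5, 17.4, 21.3 and 25.9 CPM in the Saline embryos in the order above, against 24.3, 36.9 and 45.5 CPM as the lowest, median and highest of the EtOH embryos. S2-4 again was the highest Saline embryo and lay inside the EtOH range. It rose by 0.98 ± 0.18 on the log2 scale (edgeR, adjusted p = 0.0161), and without S2-4 the log2 fold change was 1.13 (adjusted p = 6.23e-05). Rpgrip1, which encodes a ciliary protein, was at 8.74, 9.49, 12.4, 11.6 and 23.5 CPM in the Saline and 24.3, 29.4 and 34.6 CPM in the EtOH embryos, and rose by 1.11 ± 0.21 (adjusted p = 0.0189), or by 1.40 without S2-4. Supt16, the histone chaperone gene that lies opposite to Rpgrip1, fell by 0.42 (adjusted p = 0.0419). Atg16l2, of the autophagy machinery and opposite to Fchsd2, rose by 0.91, or by 1.12 without S2-4, and its Saline range reached 42.9 CPM in S2-4.

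Antisense and long non-coding transcripts filled most of the other places among the 15 genes with the smallest adjusted p that rose. Gm48003, antisense to the calcium channel subunit gene Cacna2d3, was at 3.22, 2.81, 3.93, 3.05 and 11.6 CPM in the Saline and 12.99, 15.2 and 20.4 CPM in the EtOH embryos, and rose by 1.68 ± 0.31 (adjusted p = 0.0161), or by 2.24 without S2-4. The groups did not overlap, though S2-4 was near the EtOH embryos and far from the other Saline ones. Dtnbos, antisense to the dystrobrevin gene Dtnb, rose by 0.99, Fbxl12os by 1.00, Gm12709 opposite to Sgip1 by 0.93, Gm29587 opposite to Syt16 by 0.90, Gm13883 opposite to D430041D05Rik by 1.05 and Gm32036 opposite to Elmo1 by 1.26. The long non-coding RNAs BC046251 and Gm26909, the latter opposite to the DNA polymerase gene Polb, rose by 1.97 and 1.21, Gm11437, annotated as protein-coding and opposite to the acetyl-CoA carboxylase gene Acaca, by 1.14, and AC161607.1, which had no match in the annotation, by 1.45. Without S2-4 the log2 fold changes of Gm11437, Fbxl12os and AC161607.1 were 1.41, 1.18 and 1.94. With the test limited to genes that have no opposite-strand neighbour, 24 of 4915 genes rose and 20 fell. The genes with the smallest p without S2-4 were C79798, Slc24a5 and Gm19710, which rose by 2.01, 1.55 and 1.68 there. With all 11 embryos their log2 fold changes were 1.41, 0.99 and 1.12 and did not pass the test (adjusted p = 0.103, 0.183 and 0.142).

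The genes that define Cluster 11 were not called after EtOH. Ebf1 was at 11463, 11485, 13214, 11923 and 12416 CPM in the Saline and 9874, 13074 and 14267 CPM in the EtOH embryos, groups that overlapped, with a log2 fold change of 0.03 ± 0.09 (edgeR, adjusted p = 0.922). Rarb was at 2079.7, 1891, 1584, 1967 and 1655 and 1835, 1918 and 2197 CPM (0.05 ± 0.09, adjusted p = 0.825), and Gad2 at 1098, 1118, 1425, 1084 and 1155 and 811, 1174 and 1503 CPM (-0.06 ± 0.13, adjusted p = 0.84). All 3 pairs of groups overlapped, and a p that misses the threshold does not show that levels were equal. Of 23 striatal identity factors tested, 0 rose and 0 fell, near the background of 0.452% and 0.383% of all genes tested, with a median log2 fold change of 0.03. Their groups did not overlap for 2 factors, Pbx3 and Rxrg, both higher in EtOH embryos, against 0.962% of all genes tested.

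Pbx3 was at 1476, 1455, 1533, 1238 and 1530.4 CPM in the Saline and 1656, 1852 and 2196 CPM in the EtOH embryos, a log2 fold change of 0.33 ± 0.09 that missed the threshold (adjusted p = 0.0761) and passed it without S2-4 (log2 fold change 0.33, adjusted p = 0.0169). C79798, antisense to Pbx3, was at 25.3 to 27.8 CPM in the other 4 Saline embryos, 101 CPM in S2-4 and 91.9 to 132 CPM in the EtOH embryos, and its part in the value of Pbx3 was not tested. Rxrg, the retinoid X receptor that pairs with Rarb, was at 104.2, 93.2, 44.2, 56.7 and 99.0 CPM and 104.4, 127 and 155 CPM, groups that adjoined without overlap, with a log2 fold change of 0.60 ± 0.23 (adjusted p = 0.192). Foxp1 was at 1898, 1586, 1363, 1410.1 and 1602 and 1745, 1932 and 2079 CPM, overlapping ranges, with 0.22 ± 0.09 (adjusted p = 0.191). Zfhx3, a zinc finger homeobox factor of maturing striatal neurons, was at 1352, 1537, 2183, 1627 and 1351 and 1151, 1371 and 1463 CPM, with -0.33 ± 0.11 (adjusted p = 0.141), and was lower without S2-4 (log2 fold change -0.40, adjusted p = 0.0189). Isl1 at -0.11 ± 0.15, Oprm1 at -0.22 ± 0.14 and Tac1 at 0.28 ± 0.14 were not called either. Some of these passed the threshold under other settings, Pbx3 in 6, Zfhx3 in 3, Oprm1 in 2 (lowest adjusted p = 0.0306), and Rxrg and Foxp1 in 1 each (adjusted p = 0.0181 and 0.0497).

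No other list held a called gene with all 11 embryos, where 0.835% of all genes tested were called, so that about 0 calls in lists of this size is near the background. These were 6 direct pathway genes, 4 indirect pathway genes, 12 striatal signalling genes, 8 genes of GABA synthesis and transport, 12 GABA receptor genes, 21 glutamate receptor genes, 10 retinoic acid pathway genes, 31 genes of synaptic adhesion and release, 28 Wnt pathway genes, 8 of alcohol metabolism, 9 of oxidative stress, 11 of apoptosis and p53 and 4 immediate early and heat shock genes that could be tested. Their median log2 fold changes lay between -0.16 for glutamate receptors and 0.13 for retinoic acid genes. Grik2, a kainate receptor subunit, was at 3326 ± 753 CPM in Saline and 3708 ± 223 CPM in EtOH embryos. Genes of the direct pathway summed to 12761 to 14580 CPM in Saline and 10986 to 15581 CPM in EtOH embryos. Among 10 genes tested that the study discusses over several clusters, a list chosen on these samples, 0 were called with all embryos. Without S2-4, Rspo2, which amplifies Wnt signals, and the imprinted gene Magel2 were lower, where 2.64% of all genes tested fell. The 10 cortical interneuron markers that could be tested had a median of -0.39 and all lay below 0, with 0 called. Over all genes tested, 5219 of 10185 lay below 0. The 8 projection neuron markers had a median of -0.29. Among 4 intermediate progenitor, 11 radial glia, 9 cycling, 7 thalamic, 4 hemoglobin and 2 non-neural markers tested 0 were called. The non-neural ones were P2ry12, at 53.1 CPM in Saline and 95.6 CPM in EtOH embryos, and Cx3cr1, at 8.40 and 17.8 CPM. Both were higher without S2-4, where 7.19% of all genes tested rose. Also without S2-4, the GABA receptor subunit gene Gabra2, the adhesion gene Tenm1, the neurofilament gene Nefm and the cycling gene Mki67 were among the list members that were lower. The NMDA receptor gene Grin1, the ligand gene Wnt3a, the peroxidase gene Gpx4, the replication gene Mcm7 and the heme synthesis gene Alas2 were higher there. Of all genes tested in that fit, 2.64% were called lower and 7.19% higher.

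Whether EtOH acted differently on Cluster 11 than on its neighbours was tested by the cluster by treatment term, with the embryo as a block. Against Cluster 13, 1 of 9693 genes (0.0103%) differed. Ccbe1, a secreted protein of lymphatic growth, was at 11.8 CPM in Saline and 3.04 CPM in EtOH embryos in Cluster 11, and at 9.04 and 12.04 CPM in Cluster 13, a difference of the log2 fold changes of -2.54 ± 0.43 (edgeR, adjusted p = 0.0193). With a batch by cluster term the adjusted p was 0.0918, and over the fits without 1 embryo it ranged from 0.0122 to 0.406. Against Cluster 18, 1 of 9238 genes (0.0108%) differed. Ptchd1, a patched domain gene of synaptic function, was at 4.08 and 8.20 CPM in Cluster 11 and at 41.5 and 19.4 CPM in Cluster 18, a difference of 2.11 ± 0.36 (adjusted p = 0.0242). Without S2-4 it was 1.99 (adjusted p = 0.0996), and over all fits without 1 embryo the adjusted p ranged from 0.0137 to 0.255. Against Cluster 5, 0 of 11402 genes (0%) passed in this fit, where 654 had an unadjusted p under 0.05. Gpc6 had the smallest p (log2 fold change 0.17 here and -0.50 in Cluster 5, interaction test, adjusted p = 0.0777). Foxp1 was next (0.22 and -0.33, adjusted p = 0.127). Gpc6 was called with RLE size factors, a batch term, thinning or no filter, and without S1-1, S2-1, S2-4, E2-2 or E2-4. Foxp1 was called with thinning, with no filter and without S1-1. Tested alone, Cluster 13 had 65 genes higher and 16 lower, Cluster 18 had 15 and 5, and Cluster 5 had 128 and 87, all from the same libraries as Cluster 11. Sox11 had log2 fold changes of -0.50, -0.56 and -0.60 in Clusters 13, 18 and 5, beside the -0.54 of Cluster 11, and Khdrbs2 had -0.32, -0.23 and -0.31 against -0.68. For Epha3 they were -0.34, -0.25 and -0.34, and for C2cd2 0.65, 0.67 and 0.86 against 0.92. In this fit the difference from Cluster 11 passed the interaction test in none of these 4 genes, with an adjusted p of 0.667 or above. Without the filter on low counts, Khdrbs2 was called against Cluster 5. Npas3 had -0.61, -0.76 and 0.05 in Clusters 13, 18 and 5 against -0.57, and Zfhx2 had -0.12, -0.28 and 0.09 against -0.45. Against Cluster 5 neither passed in this fit (interaction test, adjusted p = 0.605 and 0.224). Npas3 was called there with nuclei thinned, and Zfhx2 without S2-4 or without the filter.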

How the data were processed

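Nuclei of cortex tissue were profiled with the 10x 3' chemistry. The authors aligned and counted reads with Cell Ranger against mm10, filtered and integrated nuclei, clustered them with Seurat and deposited UMI counts per gene and nucleus for each cluster of each embryo. Cell Ranger was run at its defaults per the study's methods, and a strand setting and a doublet caller are not given in the sources used here. The members and gene lists were chosen with earlier results of these data known, so list counts are descriptions.

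Counts of Cluster 11 were summed per embryo and filtered with filterByExpr. EtOH was compared with Saline over 11 embryos by edgeR 4.0.16 (TMM, robust quasi-likelihood test, no covariates) with Benjamini-Hochberg adjustment over all genes tested. A gene was called where the adjusted p was under 0.05 and the fold was below 0.8 or above its inverse. Alternatives included DESeq2 1.42.0, voom of limma 3.58.1 taking the dam as a random effect, and a replicate block. Differences in EtOH effect between clusters were tested by an interaction term in edgeR. Shares and median UMIs were compared by two-sided exact permutation tests over 462 splits, whose smallest p is 0.00216. The genes named are the 15 called with the smallest adjusted p in each direction, the 15 genes with the largest ratio to the next cluster at 50 CPM or more, and list members. Genes named outside this rule, such as C79798 and Supt16, were chosen after their values were seen. Some genes that the rule would name are not reported here.

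Embryos had 14078316 to 83061737 UMIs in all nuclei. No pair of littermates had counts within sampling noise (mean chi-square per gene 1.89 to 7.53). Embryo S2-3 was not analysed here. Doublets were not removed in the comparisons, but nuclei above 2 times the embryo's median UMIs, or with 2 or more UMIs of projection neuron markers, were left out in alternatives. In simulated counts, 100 genes were changed 2-fold and 100 were changed 1.5-fold. For the EtOH comparison in Cluster 11, edgeR recovered 87% and 60% of these over 9896 genes. The interaction test of Cluster 11 against Cluster 13 recovered 54% and 18% over 8122 genes. Clusters 11 and 13 were simulated independently, without embryo effects common to both. The rates of the interaction test therefore need not hold for the real counts, where both clusters share libraries. Intervals for counts and floors (3 counts) cover counting error only. Positions came from GENCODE M21 and promoters from RefSeq. Python 3.11.15 and R 4.3.3 were used.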

Additional observations from a re-analysis of the deposited data

Results flagged for a closer look

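In groups of 5 or 6 embryos, 126 in all, the highest or lowest embryo was checked for a wide gap to the others by Dixon's criterion. Such a gap was found in 16 groups (12.7%). For independent and normally distributed values the criterion gives about 1 in 20. These groups share the same embryos and hold genes picked for being called, so the rates cannot be compared. In 9 of them the embryo was S2-4. It was above the other Saline embryos for C2cd2 (73.2 against 36.8 to 45.1 CPM), Rpgrip1 (23.5 against 8.74 to 12.4 CPM), Atg16l2 (42.9 against 20.3 to 26.4 CPM), Gm11437 (23.8 against 9.83 to 13.4 CPM) and Fbxl12os (15.7 against 8.09 to 10.2 CPM). The same held for Gm48003 (11.6 against 2.81 to 3.93 CPM), AC161607.1 (14.6 against at most 6.10 CPM) and Gm12158, antisense to Ebf1 (156 against 62.2 to 86.6 CPM), whereas Prpf38b was lower there (40.2 against 52.0 to 56.7 CPM).

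Other embryos had a wide gap in single measures. The share of Cluster 11 was 3.47% in S2-2 against 4.38 to 4.56% in the other Saline embryos, and the median was 4595.5 UMIs in E1-1 against 7508 to 8600.0 in the other EtOH embryos. Gad2 was at 1425 CPM in S2-1 against 1084 to 1155 CPM, Pbx3 at 1238 CPM in S2-2 against 1455 to 1533 CPM, and BC046251 at 3.31 CPM in E2-4 against 9.59 to 13.3 CPM. Drd2, of the indirect pathway, was at 8.51 CPM in S1-1 against 0.352 to 1.36 CPM and at 18.7 CPM in E1-2 against 0 to 5.08 CPM.

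By the interaction test, the EtOH effect on Ccbe1 differed between Clusters 11 and 13, with a difference of log2 fold changes of -2.54. For Ptchd1 the difference was 2.11 between Clusters 11 and 18. Over the fits without 1 embryo their adjusted p reached 0.406 and 0.255, and with nuclei thinned neither gene was called. Both were low in Cluster 11, Ccbe1 at 3.04 CPM in EtOH and Ptchd1 at 4.08 CPM in Saline embryos.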

How the results depend on the processing

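Of the genes named as changed, 32 had 767 values under other settings, of which 528 stayed past the threshold in the same direction, 239 were no longer past it and 0 changed direction. The numbers of genes higher and lower after EtOH, 46 and 39, became 174 and 66 with DESeq2, 403 and 280 without a filter on low counts, 26 and 24 with batch as a covariate, 281 and 128 in batch 1, 8 and 6 in batch 2, 27 and 14 with counts summed per dam, 164 and 45 with voom and the dam as a block, and 28 and 20 with nuclei thinned. With the replicate number as a block they were 23 and 15. Of the 46 and 39 genes, batch 2 kept 0 and 3, and sums per dam kept 12 and 5. Thinned nuclei, with 5831 genes tested, kept 11 and 8, and the replicate block kept 14 and 11. Leaving out nuclei of high UMIs gave 52 and 39 (32 and 25 kept), and leaving out nuclei with projection neuron RNA gave 55 and 34 (30 and 18 kept). Same-numbered embryos correlated at -0.0863 to 0.0460 and share only a number, and S2-2 alone correlated best with its own number. Of the settings chosen after seeing the data, genes without an opposite-strand neighbour gave 24 and 20, and batch as a covariate without S2-4 gave 692 and 286. Leaving out 1 embryo gave 0 to 736 higher and 1 to 270 lower. The causes were not tested.

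Genes whose EtOH effect differed from Cluster 13 numbered 21 without a filter, 0 with a batch term, 3 with thinning and 0 to 4 without 1 embryo. Against Cluster 18 they numbered 9, then 0 with thinning, and 0 to 2. Against Cluster 5 they numbered 54, then 1 with RLE size factors, 4 with a batch term, 17 with thinning and 0 to 4.

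Of 344 values of uncalled genes under other settings, 13 passed the threshold in the same direction, of Pbx3, Zfhx3, Oprm1, Rxrg and Foxp1, and 19 turned. The log2 fold change of Ebf1 was -0.0131 without a filter, -0.00662 with the block, -0.0128 without nuclei holding projection neuron RNA, -0.00966 with batch as a covariate without S2-4, -0.0636 in batch 1, -0.0285 per dam and -0.0168 without nuclei of high UMIs. The log2 fold change of Rarb was -0.199 in batch 1 and -0.0170 per dam. In batch 1, Foxp1 was at -0.105, Ikzf1 at -0.681, Oprm1 at 0.0111, Foxp2 at -0.264 and Meis2 at -0.0361. Without 1 embryo the ranges were -0.00456 to 0.0978 for Ebf1, -0.00590 to 0.118 for Rarb and -0.136 to 0.0288 for Gad2. The difference in share was -0.186 to 0.375 points, and that in median UMIs -2446 to -1434.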
